A study of Rattus norvegicus with 24 samples.

Results

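The interaction of genotype and ecdysterone asks, for each transcript of the rat liver, whether the response to ecdysterone feeding in obese rats differed from that in lean rats. It is the difference (OE−OC)−(LE−LC) on the log2 scale, taken from 1 model with 4 group means, so a positive value stands for a higher and a negative value for a lower response in the obese rats. All 24 of the 24 arrays and all 23188 transcripts entered it, and no transcript was chosen by its values. All rats were male Zucker rats aged 25 weeks and ate 1 basal diet for 4 weeks, 2 rats to a cage, and were killed without fasting. Groups LC and LE were lean rats with 1 fa copy of the leptin receptor gene (fa/+, heterozygous), and groups OC and OE were obese homozygotes (fa/fa, strain Crl:ZUC-Leprfa). The diet of LE and OE held 0.5 g ecdysterone per kg, and that of LC and OC held none. Each group had 6 rats with 1 liver array each, a random choice out of the rats of that group. The fa allele is a missense allele that these arrays do not read, and fa/fa rats overeat and are hyperinsulinaemic, so leptin signalling, body fat and food intake go together in this model and cannot be told apart.

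Ecdysterone is a plant steroid and an insect moulting hormone that many rodent feeding studies have tested for effects on glucose and lipids. Hepatocytes of an fa/fa rat live under high insulin, which drives the transcription factors of fatty acid and sterol synthesis. The liver also reads meal times, the adrenal cortex, growth hormone pulses and its own circadian clock, and immediate early, clock and STAT5 target genes can shift within hours along with these inputs. "Passed the test" here means an adjusted p under 0.05 from limma with Benjamini-Hochberg adjustment over the 23188 transcripts.

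The arrays were alike in overall signal. The median log2 signal per array lay between 6.51 and 6.61, and an array correlated with the others of its group at 0.983 to 0.988 on average. The mean signal of 9 hepatocyte markers ran from 17.99 to 18.38 over the 24 rats, and that of 13 markers of fat, pancreas, kidney and muscle from 5.22 to 5.54, with the reservation that signals of different probes are not on 1 scale. Nothing in the labels ties rats to cages or to a day, so replicates are single rats whose spread may include both, and the number of arrays limits the precision.

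No transcript passed the test for the interaction. Of 23188 transcripts, 0 had an adjusted p under 0.05 in limma (0.0% called), and the lowest adjusted p was 0.9995. An unadjusted p under 0.05 was reached by 912 transcripts (3.93%), where 1159.4 are expected if no transcript differs. The response was higher in obese rats for 472 of them (2.04%) and lower for 440 (1.9%). The effect in lean rats alone (LE vs. LC) and in obese rats alone (OE vs. OC) also gave 0 transcripts at an adjusted p under 0.05, with 813 (3.51%) and 1322 (5.7%) at an unadjusted p under 0.05. The genotypes were not shown to respond alike by this. The median standard error (SE) of an interaction was 0.26, against 0.18 for the effect in 1 genotype, and 56.5% of the 912 transcripts lay below the median signal. The 95% interval stayed within −1 to 1 for 20149 transcripts (86.9%) and within −2 to 2 for 23063 (99.5%), so for most transcripts a larger difference between the genotypes than 2-fold lies outside the interval. Among the 912 transcripts 48 had an interaction of more than 1 in size.

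**Figure D1:**
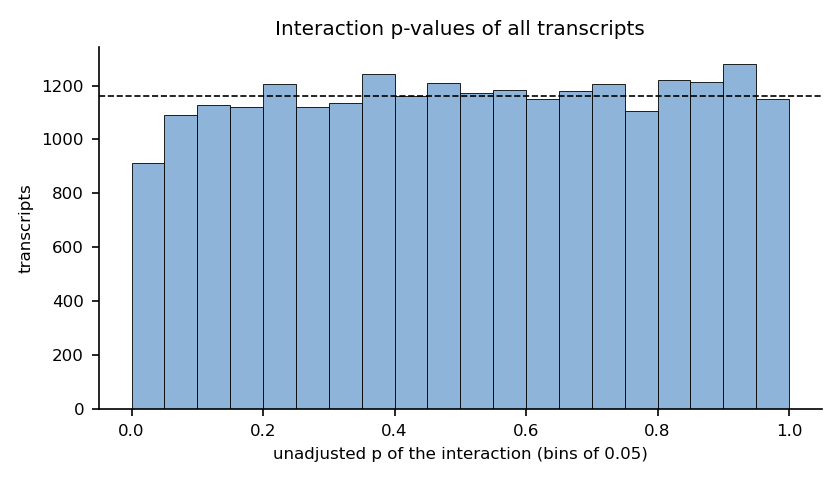
Histogram of the unadjusted interaction p-values of all 23188 transcripts in bins of 0.05, with the number of transcripts per bin on the vertical axis and a dashed line at the 1159.4 expected per bin if no transcript differs. The first bin holds 912 transcripts and lies below the line.

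A response in opposite directions was looked for by reading each genotype on its own, since the rats of the 2 genotypes are separate animals. At an unadjusted p under 0.05 in both genotypes, 23 transcripts differed from the controls with opposite signs (0.0992% of all) and 30 with the same sign (0.129%). Such a p was reached by 3.51% of all transcripts in the lean rats and by 5.7% in the obese rats. Unrelated effects would therefore coincide in some transcripts, with opposite signs about as often as with the same sign. Whether the 23 exceed the number from such coincidence was not tested. Of the 23, 13 were lower in LE than in LC and higher in OE than in OC (0.0561%), and 10 were higher in LE and lower in OE (0.0431%). No transcript had groups that did not overlap in both genotypes in opposite directions (0.0%), whereas 45 had non-overlapping groups in the lean rats (0.194%) and 51 in the obese rats (0.22%). Over all transcripts the 2 effects had opposite signs in 48.9%.

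Responses of 1 genotype were seen in the other at little more than the share of all transcripts. A fold change (FC) of 1.3 with an unadjusted p under 0.05 was met by 607 transcripts in lean (2.62%) and 981 in obese rats (4.23%). Of the 303 that were higher in LE than in LC, 52.8% were higher in OE than in OC, against 49.5% of all transcripts. Of 304 lower in LE, 51.3% were lower in OE, against 50.5%. The reverse reading gave 52.3% for 507 transcripts higher in OE (49.3% of all) and 55.3% for 474 lower in OE (50.7% of all). For the lean choice the median effect was 0.47 and −0.46 where chosen and 0.01 and −0.01 in the other genotype. For the obese choice it was 0.47 and −0.47, and 0.01 and −0.02 in the other genotype.

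**Figure D2:**
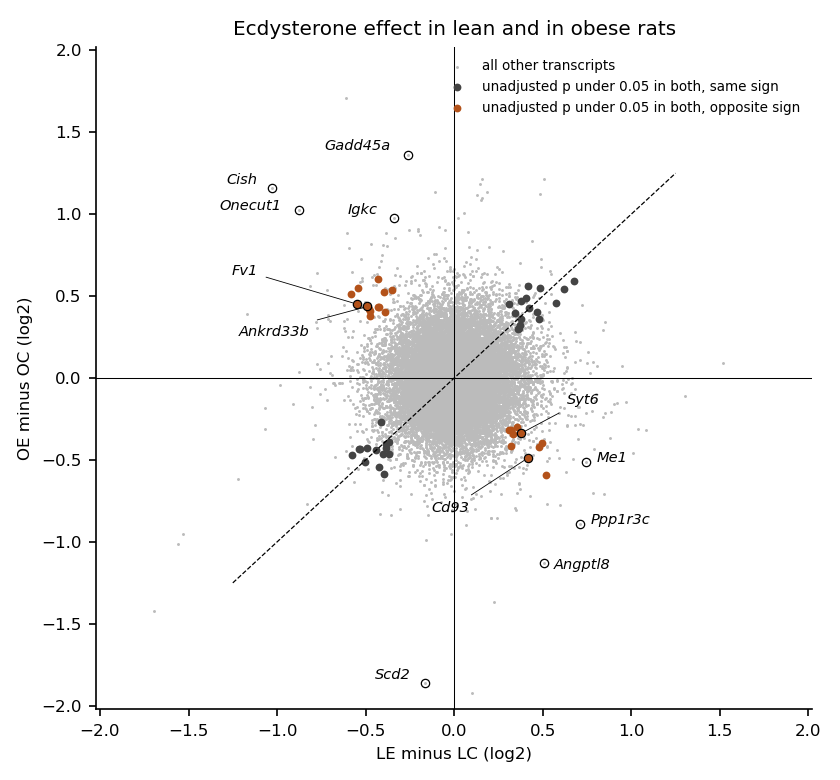
Ecdysterone effect in lean rats (LE minus LC, log2, horizontal) against that in obese rats (OE minus OC, log2, vertical) for 23188 transcripts, with equal effects on the dashed line. Orange points are the 23 transcripts with opposite signs and black points the 30 with the same sign at an unadjusted p under 0.05 in both genotypes, open circles mark genes described in the text. The transcripts lie around the origin, with effects of opposite sign in 48.9% of all.

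Fv1, known from mice as a restriction factor against retroviruses, had the smallest interaction p of all transcripts. Its log2 signal ran from 7.63 to 8.31 (median 7.86) in LC and from 7.22 to 7.48 (7.38) in LE, against from 6.81 to 7.15 (7.11) in OC and from 7.02 to 8.09 (7.48) in OE. All 6 LE rats lay below all LC rats, and 5 of the 6 OE rats lay above all OC rats. The interaction was 1.00 (SE 0.21, 95% interval 0.56 to 1.44, unadjusted p = 6.65e-05, two-sided exact permutation p = 2.58e-05 with diet labels permuted within each genotype). With an adjusted p of 0.9995 in limma it did not pass the test, and it was picked out of 23188 transcripts, as was every single gene named here.

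Syt6, a synaptotagmin of vesicle fusion, was its counterpart in the other direction at a low signal. Its signal ran from 4.14 to 4.37 (median 4.28) in LC and from 4.52 to 4.80 (4.62) in LE, against from 4.68 to 5.03 (4.88) in OC and from 4.24 to 4.99 (4.47) in OE. All 6 LE rats were above all LC rats and 5 of 6 OE rats below all OC rats. The interaction was −0.71 (SE 0.18, exact permutation p = 9.6e-05). Only 14.3% of transcripts had a lower mean signal.

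Other genes with a lower mean in LE and a higher mean in OE were of mixed function. For Ankrd33b, an ankyrin repeat protein, the signals were 6.00 to 6.57 in LC and 5.26 to 6.10 in LE, against 5.01 to 5.76 in OC and 5.56 to 6.12 in OE. Of its LE rats 5 lay below all LC rats, while 5 OE rats lay above all OC rats (interaction 0.93, SE 0.22, exact permutation p = 0.00015). Esrrg encodes oestrogen-related receptor gamma, an orphan nuclear receptor of energy metabolism. Its signal ran from 9.50 to 10.57 (median 9.78) in LC and 8.83 to 9.79 (9.45) in LE, against 8.31 to 9.23 (8.66) in OC and 8.90 to 9.89 (9.31) in OE, so that 4 LE rats were below all LC rats and 4 OE rats above all OC rats. The effects were −0.43 in lean and 0.61 in obese rats (SE 0.19 each) and the interaction 1.03 (SE 0.27, exact permutation p = 0.000803). The lectin-like gene Clec2l (0.92), Cep112, a centrosomal protein (0.89), and the beta tubulin Tubb4a (0.86) also had opposite effects. So had Strn3, a striatin (0.86), Osgin2 (0.80), the olfactory receptor gene Olr718 (1.10), Cyyr1 (1.09) and Rpgr (0.86), and the motor protein gene Myo5a. Strn3 was read at a low signal, with 13.0% of transcripts below it, and its interaction was 0.31 in the mean of its 2 transcripts.

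The 10 genes with a higher mean in LE and a lower mean in OE included an endothelial and a red blood cell gene. Cd93, a transmembrane glycoprotein of endothelial and myeloid cells, had signals of 6.78 to 7.85 in LC and 7.23 to 8.16 in LE, against 8.13 to 8.43 in OC and 7.38 to 8.25 in OE. In the obese rats 5 of 6 OE lay below all OC, while LE and LC overlapped, with 3 LE rats above all LC rats (interaction −0.90, SE 0.26, exact permutation p = 0.0031). Bpgm, the enzyme that makes bisphosphoglycerate in red blood cells, had signals of 6.29 to 7.22 in LC and 6.64 to 7.57 in LE, against 7.24 to 8.02 in OC and 7.01 to 7.56 in OE (interaction −0.89, SE 0.26, exact permutation p = 0.00341). The groups overlapped in both genotypes. A score of red blood cell markers had an interaction of −0.19, and with it as a covariate the interaction of Bpgm was −0.68 and that of Cd93 −0.92. The others were RGD1564865 (−1.11), LOC100911937 (−0.90), the collagen prolyl hydroxylase subunit P4ha3 (−0.74), the zinc transporter Slc39a13 (−0.63), Mlph (−0.66), Lrfn3 (−0.67) and Mxd4 (−0.63).

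Some of these genes have known partners. The pairs below were formed from genes picked by their values, and a link within a pair was not tested. Mlph encodes melanophilin, which links the motor Myo5a to vesicles, and the interaction of Myo5a was 0.90 (SE 0.28, exact permutation p = 0.00633) where that of Mlph was −0.66 (SE 0.20, exact permutation p = 0.000396). Mxd4 is a repressor that competes with Myc for their common partner. The interaction of Mxd4 was −0.63 (SE 0.22, exact permutation p = 0.00271) and that of Myc 1.49 (SE 0.68, exact permutation p = 0.0697).

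Among transcripts without opposite effects at p under 0.05 in both genotypes, the smallest interaction p-values belonged to genes of many kinds, some with most of the difference in 1 genotype. Eml5, a microtubule-associated protein, had signals of 7.36 to 7.95 in OC and 7.55 to 9.10 in OE, with 4 OE rats above all OC rats, and 9.01 to 9.59 in LC and 8.42 to 9.55 in LE (interaction 1.22, SE 0.29, exact permutation p = 0.000967). In Mgat4e, a glycosyltransferase gene at low signal, the difference lay in the lean rats (−0.70, SE 0.15) and was 0.14 in the obese rats (interaction 0.83). Ogn, a matrix proteoglycan, had an interaction of 0.83 in its brightest transcript and 0.53 in the mean of its transcripts. RGD1561778 gave 1.05 and 0.71 in the same way, and Unc79 0.96 and 0.65. Fam168b, with 1 transcript, had 0.88. In the negative direction, olfactory receptor genes filled several places, with −0.85 for Olr468, −1.06 for Olr886 and −1.07 for Olr377 at low signals that only 7.69%, 17.0% and 22.6% of transcripts fell below. Liver is not known to use these receptors. Il20rb, a cytokine receptor subunit, differed in the obese rats (−0.45, SE 0.14) more than in the lean rats (0.21), and Cbx2, a Polycomb protein, had an interaction of −0.65. Further negative values were −0.91 for the mast cell tryptase Tpsg1, −0.78 for LOC102549391, −0.76 for LOC688702, −0.66 for Tyw3, −0.77 for RGD1564854 and −0.64 for RGD1359108.

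**Figure D3:**
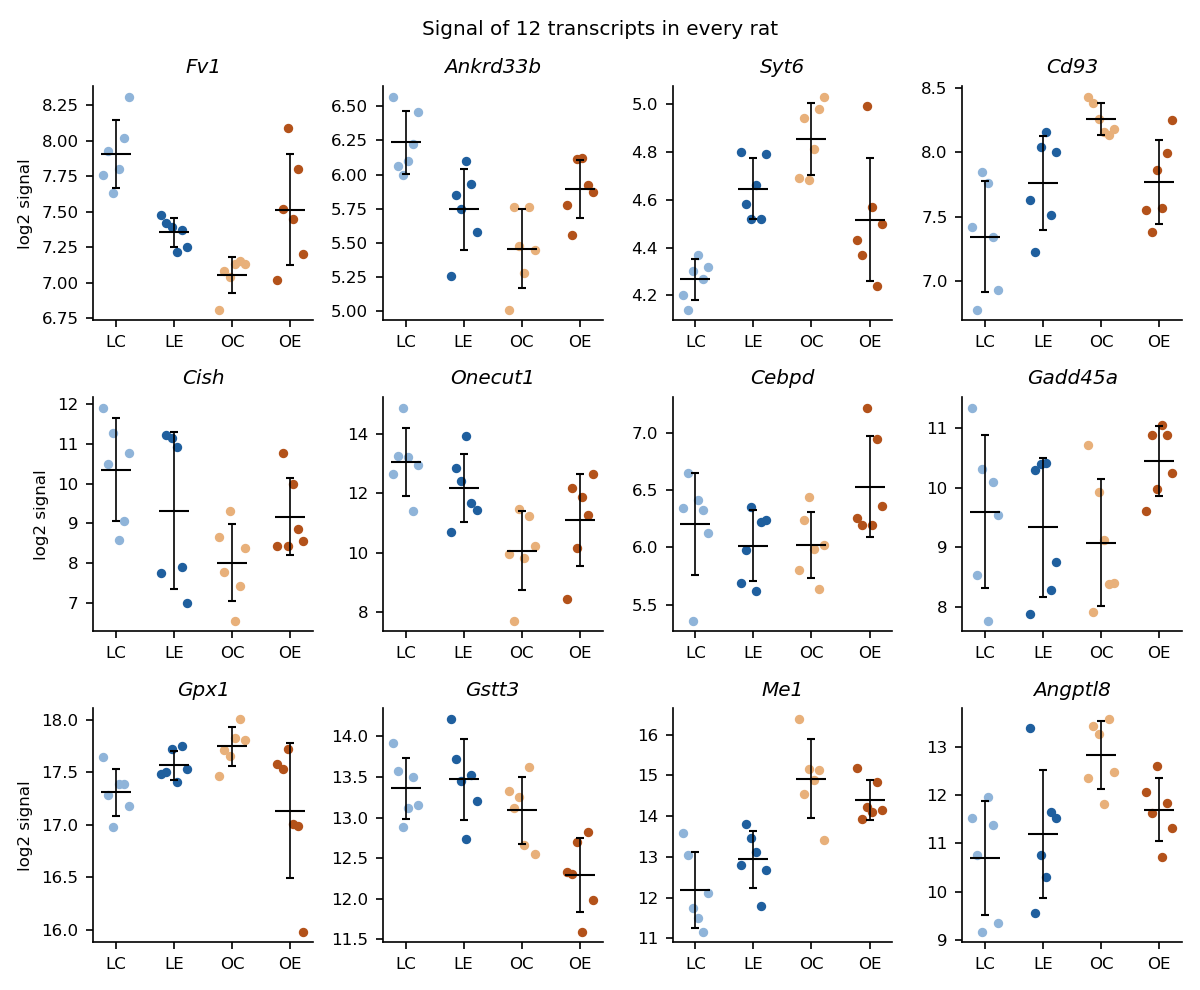
Log2 signal of 12 transcripts in each of 24 rats by group, with the bar at the group mean and whiskers of 1 SD (n = 6). In Fv1 and Ankrd33b the mean was lower in LE than in LC and higher in OE than in OC, and in Syt6 and Cd93 it was the other way round, whereas in Cish and Gadd45a the rats of a group spread over several log2 units.

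The largest interaction among transcripts at an unadjusted p under 0.05 was that of Cish, the feedback inhibitor that growth hormone induces through STAT5. Its signal ran from 8.57 to 11.91 (median 10.64) in LC and from 7.00 to 11.23 (9.40) in LE, against from 6.55 to 9.32 (8.07) in OC and from 8.42 to 10.76 (8.71) in OE. Rats of every group were spread widely, and the groups overlapped in both genotypes. The effect was −1.03 in lean and 1.16 in obese rats, and the interaction 2.19 (SE 0.94, 95% interval 0.25 to 4.12, unadjusted p = 0.0282, exact permutation p = 0.0585). Onecut1, a hepatocyte transcription factor under growth hormone control, had an interaction of 1.90 (SE 0.90, exact permutation p = 0.081), with signals from 10.71 to 14.87 in the lean and from 7.72 to 12.66 in the obese rats. For other STAT5 targets the values were smaller, and their difference from Cish was not tested. Socs2 had effects of 0.40 and 0.58 and an interaction of 0.17 (SE 0.81, 95% interval −1.49 to 1.83), and Igf1, the main growth hormone target of the liver, one of −0.10 (SE 0.17). Of 17 growth hormone and STAT5 genes, 12 had a positive interaction with a median of 0.17, against 49.7% positive and a median of −0.001267 over all transcripts. A positive interaction at an unadjusted p under 0.05 was found for 2, 11.8% of the list against 2.04% of all transcripts. Without 1 array this median ran from 0.08 (without LC rat 1) to 0.23 (without OC rat 15). Signals of 14 female-biased liver genes, which respond to the pattern of growth hormone secretion in rats, had a median interaction of −0.37, with 3 of 14 above 0 and none at an unadjusted p under 0.05, and −0.21 without LE rat 11. The 9 measured male-biased liver genes had a median interaction of 0.03, with 5 above 0 and none at an unadjusted p under 0.05. Their median effects were 0.10 in lean and 0.14 in obese rats.

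Ppp1r3c, the glycogen-targeting subunit of protein phosphatase, went the other way. Its signal ran from 12.38 to 14.33 (median 13.74) in LC and from 13.33 to 15.41 (14.40) in LE, against from 13.38 to 14.66 (14.29) in OC and from 11.22 to 14.43 (13.61) in OE. Groups overlapped in both genotypes, with 3 LE rats above all LC rats and 2 OE rats below all OC rats. The interaction was −1.60 (SE 0.58, 95% interval −2.80 to −0.41, unadjusted p = 0.0103, exact permutation p = 0.0201).

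The promoters of Cish and Ppp1r3c are shown because these genes had wide interactions in opposite directions, and that of Ciart, a clock repressor, because a score of clock genes differed along with the contrast. Each runs from 250 bases before to 50 bases after the gene start in RefSeq (build GRCr8), with capitals at every match of TTCNNNGAA, the STAT motif, or CACGTG, the E-box of the clock activators. Either motif reads the same on both strands and the motifs share no bases in these windows.
Cish, chr8:116850719-116851018, plus strand: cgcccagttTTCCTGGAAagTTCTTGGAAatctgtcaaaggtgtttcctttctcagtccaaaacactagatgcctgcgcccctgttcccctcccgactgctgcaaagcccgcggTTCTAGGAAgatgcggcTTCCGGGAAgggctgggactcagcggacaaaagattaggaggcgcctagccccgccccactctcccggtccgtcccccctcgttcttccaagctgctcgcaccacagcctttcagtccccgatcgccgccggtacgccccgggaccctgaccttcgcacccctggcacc
Ppp1r3c, chr1:243878478-243878777, minus strand: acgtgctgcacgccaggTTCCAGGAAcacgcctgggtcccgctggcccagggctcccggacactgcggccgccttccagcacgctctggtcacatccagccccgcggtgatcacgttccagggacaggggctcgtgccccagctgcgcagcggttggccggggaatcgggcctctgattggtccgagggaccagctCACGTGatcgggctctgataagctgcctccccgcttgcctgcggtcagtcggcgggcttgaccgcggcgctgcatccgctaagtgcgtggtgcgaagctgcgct
Ciart, chr2:186112197-186112496, minus strand: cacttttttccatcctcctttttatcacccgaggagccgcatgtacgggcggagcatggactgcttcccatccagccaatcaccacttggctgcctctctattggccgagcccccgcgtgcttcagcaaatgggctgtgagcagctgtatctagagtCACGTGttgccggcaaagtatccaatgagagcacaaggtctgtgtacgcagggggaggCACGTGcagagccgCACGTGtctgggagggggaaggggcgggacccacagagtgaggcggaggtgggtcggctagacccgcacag
The window of Cish held 4 STAT motifs, the first starting 241 and the last 119 bases before the gene start, and no E-box. At least 1 STAT motif stood in 8.87% of 33469 rat promoters of this length, and 4 or more in 2 of them. Ppp1r3c had 1 STAT motif and 1 E-box, and Ciart 3 E-boxes, where 6.42% of promoters had at least 1 and 0.0568% had 3 or more. A match is a description of the letters and does not show that a factor was bound.

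Immediate early genes, which respond within minutes to growth factors, cytokines and stress, had a higher mean in OE than in OC in 25 of 32. A higher mean in LE than in LC was found for 14 of 32. Over all transcripts these shares were 49.5% and 49.3%. Effects had opposite signs in 17 of 32 (53.1%, against 48.9% of all transcripts). Jun (0.49 in lean and 1.12 in obese rats) and Dusp1 (0.49 and 0.73) were among those with higher means in both genotypes. Of 32 such genes, 25 had a positive interaction, against 49.7% of all transcripts, with a median of 0.22, and median effects of −0.05 in lean and 0.23 in obese rats. At an unadjusted p under 0.05 there were 3 positive interactions (Cebpd, Junb and Myc), 9.4% of the list against 2.04% of all transcripts, and none negative, and none passed the test. Junb, a subunit of AP-1, ran from 6.29 to 8.56 (median 6.86) in LC and 5.63 to 7.51 (7.03) in LE, against 5.98 to 6.78 (6.33) in OC and 6.46 to 8.46 (7.13) in OE. In the obese rats 5 of 6 OE lay above all OC, and the lean groups overlapped, with 1 LE rat below all LC rats (interaction 1.06, SE 0.46, exact permutation p = 0.0569). Cebpd, a transcription factor of the acute phase response, had signals of 5.36 to 6.65 in LC and 5.62 to 6.35 in LE, against 5.64 to 6.44 in OC and 6.20 to 7.22 in OE (interaction 0.69, SE 0.29, exact permutation p = 0.0347). Both groups overlapped in each genotype, with 2 OE rats above all OC rats.

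Glucocorticoid-responsive genes gave a similar count from partly the same members. Of 21, 16 had a positive interaction, against 49.7% of all transcripts, with a median of 0.26 (0.13 without LC rat 2). The median effect was −0.19 in lean and 0.05 in obese rats. Cebpd and Gadd45a had an unadjusted p under 0.05 for the interaction, 9.5% of the list against 2.04% of all transcripts in that direction. The interaction was negative for 5 of the 21, among them Tsc22d3 (−0.33, SE 0.41), Tat (−0.32, SE 0.56) and Tdo2 (−0.21, SE 0.28). Gadd45a, a growth arrest gene, ran from 7.77 to 11.34 (median 9.81) in LC and 7.88 to 10.41 (9.52) in LE, against 7.91 to 10.71 (8.77) in OC and 9.61 to 11.05 (10.56) in OE (interaction 1.63, SE 0.74, exact permutation p = 0.0786). The OE rats lay in the upper part of its range, with 3 of them above all OC rats. Per1, a clock gene that glucocorticoids induce, differed in the lean rats (−0.98, SE 0.39, with 4 LE rats below all LC rats) and was −0.05 in the obese rats (interaction 0.94, SE 0.55).

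Genes raised by fasting and lowered by insulin had a median interaction of 0.14, with 15 of 22 above 0, against 49.7% of all transcripts. A positive interaction at an unadjusted p under 0.05 was found for 2, 9.1% of the list against 2.04% of all transcripts. The direction was not stable, with a median of −0.004106 without LC rat 6 and 0.01 with a clock score as a covariate. One of the 2 was Trib1, a pseudokinase that lowers hepatic lipogenesis, with signals of 8.64 to 10.71 in LC and 8.14 to 9.98 in LE, against 7.32 to 9.76 in OC and 8.28 to 9.78 in OE (interaction 1.26, SE 0.53, exact permutation p = 0.0477). Of its LE rats 4 lay below all LC rats and of its OE rats 1 lay above all OC rats. Irs2, the insulin receptor substrate, ran from 6.17 to 7.92 in OC and from 7.85 to 8.99 in OE, where 4 rats lay above all OC rats. In the lean rats LE spread wider than LC, with 2 LE rats below and 2 above all LC rats. The effects of Irs2 were 0.14 in lean and 1.18 in obese rats (interaction 1.04, SE 0.63, exact permutation p = 0.193, and 0.66 without LE rat 7). Pdk4, the kinase that shuts off pyruvate oxidation, had effects of 0.19 and 1.13 and an interaction of 0.95 (SE 0.62). A negative interaction was found for 7 of the 22, among them G6pc with −1.04 (SE 0.98) and Fgf21 with −0.73 (SE 0.48). The effects were 0.37 in lean and −0.67 in obese rats for G6pc, and 0.81 and 0.08 for Fgf21.

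Genes of the opposite nutritional arm, raised by insulin and feeding, had lower means in OE than in OC. Of 18, 4 had a positive interaction, against 49.7% of all transcripts, with a median of −0.37. Median effects were −0.02 in lean and −0.32 in obese rats. Angptl8, an insulin-induced inhibitor of lipoprotein lipase activity, ran from 9.17 to 11.96 (median 11.07) in LC and 9.55 to 13.39 (11.14) in LE, against 11.82 to 13.58 (12.87) in OC and 10.72 to 12.61 (11.73) in OE. In the obese rats 3 OE lay below all OC, and in the lean rats 1 LE lay above all LC. The interaction was −1.63 (SE 0.70, 95% interval −3.07 to −0.19, exact permutation p = 0.058), the most negative among transcripts at an unadjusted p under 0.05.

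Fatty acid and triglyceride synthesis genes pointed the same way. Of 25, 15 had a higher mean in LE than in LC and 3 a higher mean in OE than in OC, and 14 had opposite signs (56%, against 48.9% of all transcripts). Over all transcripts 49.3% had a higher mean in LE than in LC and 49.5% in OE than in OC. The median effect was 0.06 in lean and −0.24 in obese rats. The median interaction was −0.40, or −0.25 without OC rat 13, with 5 of 25 above 0, against 49.7% of all transcripts. The malic enzyme gene Me1, which supplies NADPH, and the acetoacetyl-CoA synthetase gene Aacs had an unadjusted p under 0.05. They were 8.0% of the list, against 1.9% of all transcripts in that direction. Me1 ran from 11.16 to 13.58 (median 11.92) in LC and 11.78 to 13.81 (12.95) in LE, against 13.41 to 16.39 (15.01) in OC and 13.93 to 15.18 (14.19) in OE, with overlapping groups in both genotypes (interaction −1.26, SE 0.57, exact permutation p = 0.0627). Aacs had an interaction of −0.64 (SE 0.30, exact permutation p = 0.0534). For the desaturase gene Scd2 the OC rats spread from 10.47 to 16.03 and the OE rats from 10.20 to 12.98 while LC and LE stayed between 9.27 and 10.44, so its −1.70 (SE 0.90, exact permutation p = 0.149) came from obese rats alone. Agpat2 and Dgat2, which add acyl chains to the glycerol backbone, had −0.83 (SE 0.45) and −0.89 (SE 0.53). With the red blood cell score as a covariate the median interaction of this list was −0.16 and that of Me1 −0.67.

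Cholesterol synthesis enzymes showed the same pattern without a member at an unadjusted p under 0.05. The wider list of 25 cholesterol synthesis and uptake genes, narrowed to these enzymes after the values were seen, had 1, with a negative interaction. This was 4.0% of the wider list, against 1.9% of all transcripts in that direction. Of 20 enzymes, 13 had a higher mean in LE than in LC, 4 a higher mean in OE than in OC and 15 effects of opposite sign, and the median interaction was −0.31 with 3 of 20 above 0. Effects of opposite sign were found in 48.9% of all transcripts, and a positive interaction in 49.7%. A higher mean in LE than in LC was found in 49.3% of all transcripts, and in OE than in OC in 49.5%. Without OC rat 13 this median was −0.15, and without LC rat 1 it was −0.52. Fdps, the farnesyl diphosphate synthase, ran from 11.19 to 14.21 (median 13.27) in LC and 13.28 to 14.21 (13.57) in LE, against 13.62 to 15.17 (14.14) in OC and 13.19 to 14.79 (13.93) in OE. The lean groups shared their upper end while LC reached much lower, and the groups overlapped in both genotypes (interaction −0.93, SE 0.50, exact permutation p = 0.115, and −0.57 without LC rat 6). Nsdhl and Dhcr7, which act late in the pathway, had −0.57 (SE 0.31, −0.37 without LC rat 6) and −0.70 (SE 0.45). With the red blood cell score as a covariate the median of the list was −0.12. Its part in this result was not tested.

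Urea cycle and amino acid breakdown genes had a median effect of 0.09 in lean and −0.17 in obese rats, with 17 of 25 opposite in sign. The median interaction was −0.30, with 6 of 25 above 0. Of all transcripts 48.9% were opposite in sign and 49.7% had a positive interaction. Without OE rat 23 the median was −0.10 and the interaction of Gls2 −0.49. Prodh, the first enzyme of proline breakdown, ran from 11.02 to 12.73 (median 11.62) in LC and 11.46 to 14.25 (12.04) in LE, against 11.61 to 13.10 (12.55) in OC and 11.27 to 12.74 (11.87) in OE (interaction −1.21, SE 0.54, exact permutation p = 0.0586). The groups overlapped in both genotypes. Gls2, the liver glutaminase, had −0.76 (SE 0.36, exact permutation p = 0.0632), and Cth, which makes cysteine from cystathionine, −0.92 (SE 0.47, exact permutation p = 0.097). With a clock score as a covariate the median of the list was −0.18, Prodh −0.75 and Cth −0.48.

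Glutathione genes held the most interactions at an unadjusted p under 0.05 of any function list, all negative and with effects of larger size in the obese rats. Of 27 glutathione transferase and synthesis genes, 5 had such an interaction (Gpx1, Gsta2, Gstt3, Gstk1 and Gsta5), 18.5% of the list against 1.9% of all transcripts in that direction. The median interaction of the list was −0.12 (−0.07 without LC rat 3), so most of its members did not share the size of these 5. Above 0 were 9 of 27, against 49.7% of all transcripts. Gpx1, the cytosolic glutathione peroxidase, ran from 16.98 to 17.64 (median 17.33) in LC and 17.41 to 17.75 (17.52) in LE, against 17.46 to 18.01 (17.76) in OC and 15.98 to 17.72 (17.27) in OE. Of the OE rats 3 were below all OC rats, and 1 of them was far below the rest (interaction −0.87, SE 0.28, exact permutation p = 0.00138). Its effects were 0.26 in lean rats, with 2 LE rats above all LC rats, and −0.61 in obese rats. Gsta2, an alpha-class transferase, ran from 13.33 to 13.92 in LC and 13.41 to 14.04 in LE, against 13.00 to 13.43 in OC and 12.34 to 13.04 in OE. The lean groups overlapped almost entirely, and 5 of 6 OE rats were below all OC rats (effects 0.11 and −0.50, interaction −0.61, SE 0.21, exact permutation p = 0.00652).

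The theta-class gene Gstt3 had the widest of these differences, with 12.88 to 13.92 (median 13.33) in LC and 12.73 to 14.22 (13.49) in LE, against 12.55 to 13.62 (13.19) in OC and 11.59 to 12.82 (12.32) in OE. In the obese rats 4 OE lay below all OC, and the lean groups overlapped (interaction −0.92, SE 0.33, exact permutation p = 0.0254). Gstk1, the mitochondrial and peroxisomal kappa transferase, had −0.70 (SE 0.31, exact permutation p = 0.0567) and Gsta5, of the alpha class, −0.46 (SE 0.21, exact permutation p = 0.0308), each with 5 OE rats below all OC rats. Transferases of a class are similar in sequence, so probes of one may also read another. In Gstm7, of the mu class, 5 OE rats were likewise below all OC rats, with an interaction of −0.51 (SE 0.29, exact permutation p = 0.135). With a clock score as a covariate 3 members of the list had a negative interaction at an unadjusted p under 0.05.

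**Figure D4:**
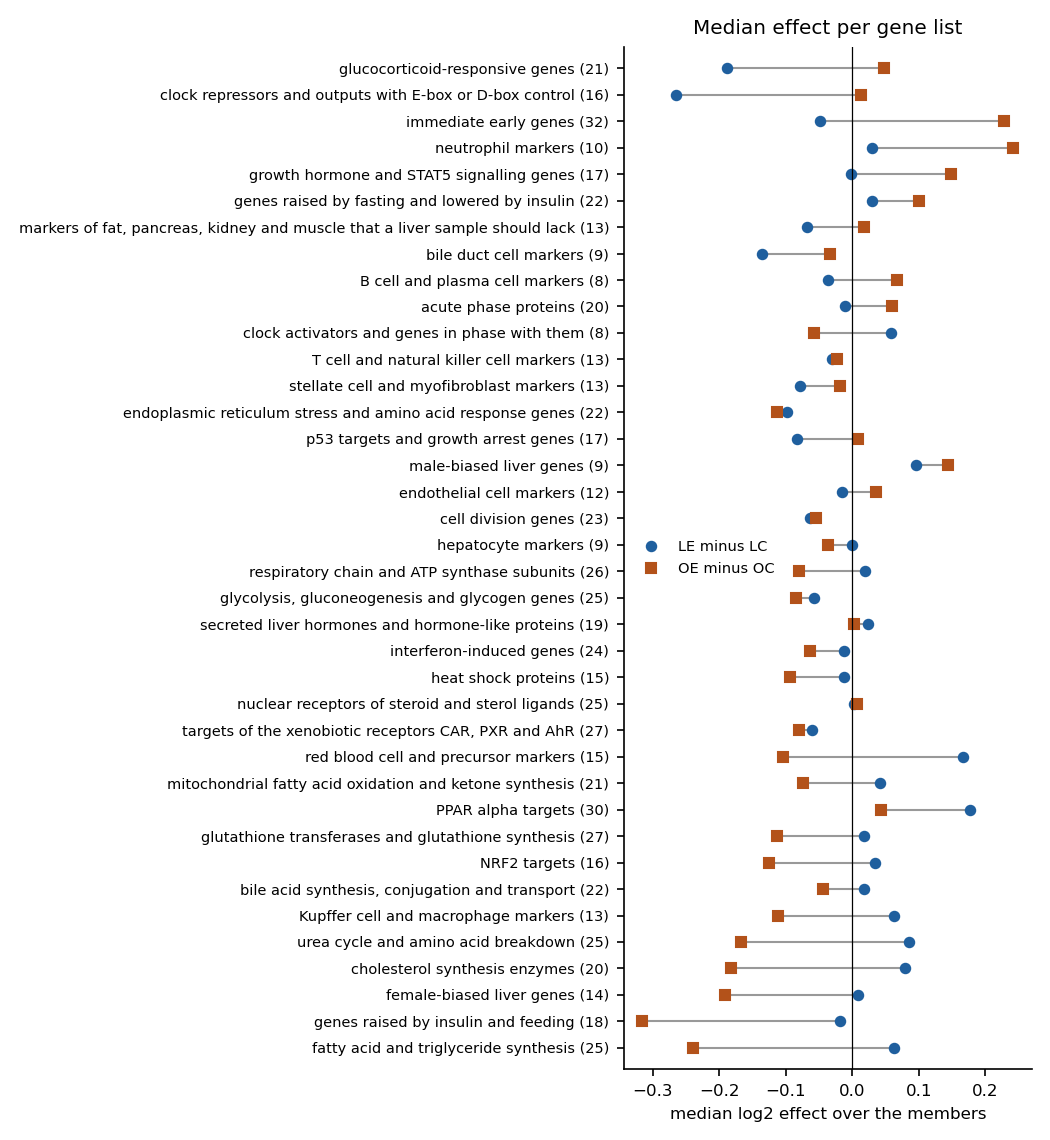
Median log2 effect over the members of 38 gene lists in lean rats (LE minus LC, circles) and obese rats (OE minus OC, squares), with the number of measured members in brackets and the lists ordered by median interaction. Fatty acid synthesis, insulin-raised, female-biased and cholesterol synthesis genes lie at the bottom with obese medians of −0.24, −0.32, −0.19 and −0.18, and glucocorticoid-responsive genes, clock repressors and outputs, and immediate early genes at the top with 0.05, 0.01 and 0.23.

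Of 38 gene lists for functions and cell types, 22 had medians of opposite sign in the 2 genotypes, 17 had a positive and 21 a negative median interaction, and no member of any list passed the test. Several lists share members, and genes of a list vary together between rats. Lists with medians near 0 included respiratory chain and ATP synthase subunits (median interaction −0.04 over 26 genes), glycolysis, gluconeogenesis and glycogen genes (−0.04 over 25), interferon-induced genes (−0.07 over 24) and cell division genes (−0.02 over 23). PPAR alpha targets had a median effect of 0.18 in lean rats, with 25 of 30 above 0, against 49.3% of all transcripts. In obese rats their median effect was 0.04, with 17 of 30 above 0, against 49.5% of all transcripts. Their median interaction was −0.11, with 11 of 30 above 0, against 49.7% of all transcripts. Among single members of other lists, the fatty acid oxidation enzyme gene Echs1 had −0.55 (SE 0.25), the glutathione-degrading Chac1 0.87 (SE 0.40), and the transcriptional inhibitor Id2 −0.85 (SE 0.28, with effects of 0.74 in lean and −0.11 in obese rats).

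Markers of other cells differed along with the contrast in part. A positive interaction was found in 49.7% of all transcripts. All 10 neutrophil markers had a positive interaction, with a median of 0.19, or 0.10 without OE rat 23, and none had an unadjusted p under 0.05. Their mean signal per rat lay between 5.08 and 5.56 in LC, 5.17 and 5.36 in LE, 5.21 and 5.47 in OC and 5.25 and 6.12 in OE. The calprotectin genes S100a8 and S100a9 had effects of 0.01 and 0.27 in lean and 0.55 and 0.65 in obese rats, with interactions of 0.54 (SE 0.32) and 0.38 (SE 0.35), or 0.32 and 0.18 without OE rat 23. The immunoglobulin light chain Igkc of plasma cells ran from 9.48 to 11.25 in LC and 8.12 to 11.05 in LE, against 8.78 to 10.53 in OC and 10.45 to 11.28 in OE, where 4 rats lay above all OC rats (interaction 1.32, SE 0.52, exact permutation p = 0.0387). Of 8 measured B cell and plasma cell markers 5 had a positive interaction and 3 a negative one. Their median was 0.09, and 1 had a positive interaction at an unadjusted p under 0.05 (12.5%, against 2.04% of all transcripts). Of 13 Kupffer cell and macrophage markers, 2 had a positive interaction (median −0.19, but 0.04 without OE rat 24), and of 9 hepatocyte markers 2 (median −0.04). Of 15 red blood cell markers 5 had a positive interaction, with median effects of 0.17 in lean and −0.10 in obese rats and a median interaction of −0.10, or −0.007964 without OC rat 15. Of 12 endothelial markers 8 had a positive interaction, with a median of 0.02 and 1 at an unadjusted p under 0.05 in each direction. Each was 8.3% of the list, against 2.04% of all transcripts in the positive and 1.9% in the negative direction. Vwf, an endothelial marker, had 0.80 (SE 0.31, or 0.57 with the red blood cell score as a covariate). The lymphatic chemokine Ccl21 had −0.59 (SE 0.22, with all 6 LE rats above all LC rats). Both were read at low signals, with 22.0% and 13.1% of transcripts below them. In bulk liver, fewer cells of a type and less RNA per cell cannot be told apart, and the part of these cells in the other results was not tested.

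The clock genes of the liver also differed along with the contrast. A clock score (mean signal of Dbp, Nr1d1, Per3 and Ciart minus that of Arntl, Npas2 and Clock, which peak at opposite times of day) ran from −4.47 to 3.67 (median 0.59) in LC and −4.10 to 2.04 (−1.32) in LE, against −1.97 to 2.77 (0.64) in OC and −1.20 to 3.69 (0.92) in OE. It was lower by 1.04 in LE than in LC and higher by 0.86 in OE than in OC, an interaction of 1.90 with group SDs of 1.73 to 3.45. Taken in fixed pairs of array numbers (1 with 2, 3 with 4 and so on, 12 pairs), rats of a pair differed by a median of 0.70 and by 2.54 at most. Between pairs the steps could be wider, as from 2.04 in LE rat 10 to −4.10 in LE rat 11.

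Single clock genes had wide spreads. Per3, a repressor of the clock, ran from 5.44 to 9.82 in LC and 5.32 to 8.52 in LE, against 6.51 to 8.84 in OC and 6.75 to 10.53 in OE (interaction 1.38, SE 0.89, exact permutation p = 0.188). Arntl, the activator BMAL of the clock, had an interaction of −1.48 (SE 1.00, exact permutation p = 0.209), Dbp 1.56 (SE 1.68), Nr1d1 1.26 (SE 1.58) and Ciart, the gene with E-boxes in its promoter, 0.55 (SE 0.44). Groups overlapped in all of these genes, and without 1 array Nr1d1 ran from 0.49 to 2.24 and Dbp from 0.92 to 2.39. Of 16 clock repressors and outputs 10 had a positive interaction, against 49.7% of all transcripts. Their median effects were −0.27 in lean and 0.01 in obese rats. The median interaction was 0.25, which was −0.02 without OE rat 24. Gys2, the liver glycogen synthase that the clock drives, had 0.99 (SE 0.58). With the score as a covariate the interaction of Fv1 was 0.97, of Syt6 −0.71, of Cish 2.12, of Me1 −1.19, of Gpx1 −0.75, of Per1 0.50 and of Gys2 0.50. For Per3 and Arntl, which are part of the score, it was 0.49 and −0.43.

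**Figure D5:**
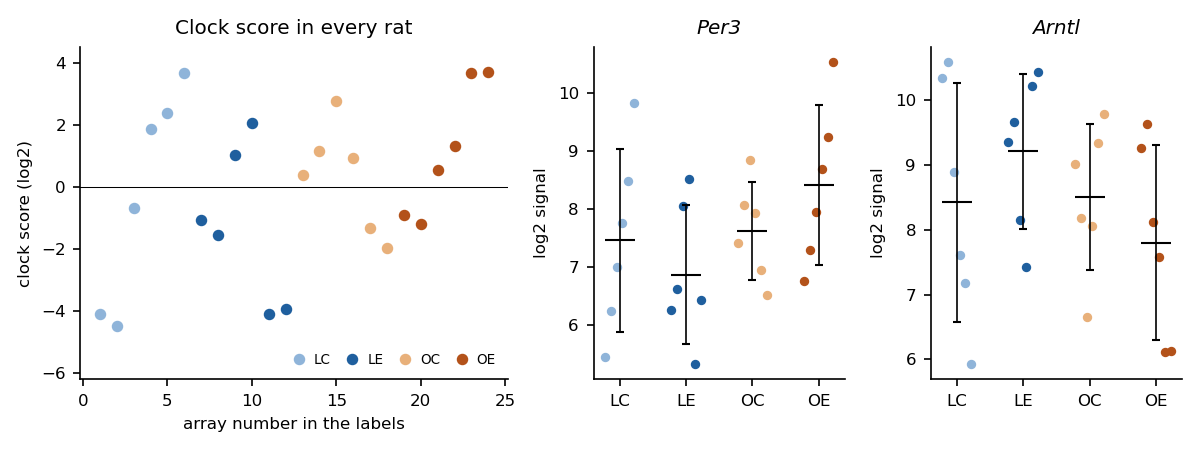
Clock score of each of 24 rats against the array number in the labels (left), and log2 signals of the clock repressor Per3 and the clock activator Arntl by group with mean and SD (n = 6). Rats of a fixed pair (arrays 1 and 2, 3 and 4 and so on) differ by 2.54 at most, with wider steps between some pairs, and the scores of LE reach from −4.10 to 2.04 and those of OE from −1.20 to 3.69.

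Genes that the study singled out for their ecdysterone response in 1 genotype were chosen on these rats, so their values are given as a description only. The 10 genes higher in lean rats with ecdysterone had a median effect of 0.75 there and −0.11 in obese rats, and the 10 lower ones −0.76 and 0.07. Among the former, Inmt, a methyltransferase of indoles, ran from 6.26 to 8.17 in LC and 6.96 to 9.80 in LE but from 5.17 to 6.51 in OC and 4.41 to 6.68 in OE (interaction −1.41, SE 0.59). The 10 genes higher in obese rats with ecdysterone had median effects of 1.06 there and 0.07 in lean rats, and the 10 lower ones −0.80 and 0.07. None of these 4 sets had a median effect of more than 0.11 in size in the genotype it was not chosen in. Tsku, a secreted regulator of cholesterol transport, was an example of effects with the same sign, −1.56 in lean and −1.01 in obese rats, with an interaction of 0.55 (SE 0.84, or 0.19 without OC rat 13).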

How the data were processed

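Liver RNA of 24 Zucker rats was hybridised to Clariom S rat arrays (Affymetrix), 1 per rat. Per the labels and methods, the authors ran SST-RMA on all arrays jointly (Affymetrix Expression Console, version 1.4). The deposited values are log2 signals for 23188 transcripts, 22900 of them with a gene symbol, and a second deposited table differed by at most 0.005. Raw intensities were not used, and columns of group comparisons by the authors were left out. The genome build of the array annotation is not given in the sources used here. A model of 4 group means was fitted in R 4.3.3 with limma 3.58.1 (default eBayes, prior 8.39 and residual 20 degrees of freedom), with Benjamini-Hochberg adjustment over all transcripts. The fit was tested on simulated data. For single genes, a two-sided exact permutation test of the interaction ran over 853776 arrangements of diet within genotype (924 for each genotype). It assumes that diet has no effect, and its p-values are not adjusted. The brightest transcript stood for a gene. Counts and medians come from Python 3.11.15. Members and lists were chosen with earlier results of these data known.

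Genes were named by rule: the 10 smallest interaction p-values per direction at or above the median signal, the 5 smallest over all, opposite effects with p under 0.05 in both genotypes, up to 4 members per list, and genes named by the study. Other list members were named, and the sterol list was narrowed to its enzymes, after their values were seen. Promoters came from the RefSeq table of GRCr8. Single values of a few genes are not reported here. Alternatives were fits without moderation, with trend and robust estimation, array weights, median centring, quantile normalisation, 2 filters on signal, the second table, transcripts with a symbol only, identical transcripts once, clock and red blood cell scores as covariates, fixed pairs of array numbers as a random block, means over transcripts of a gene, and leaving out each array.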

Additional observations from a re-analysis of the deposited data

Results flagged for a closer look

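In 13 of 340 groups of 6 rats (85 genes in 4 groups) the highest or lowest rat lay far from the other 5 by Dixon's criterion, which chance meets in about 1 in 20 groups. In LC, these were Esrrg at 10.57 in rat 4 (next value 9.86), Ppp1r3c at 12.38 in rat 3 (13.60), Gsta5 at 14.38 in rat 3 (14.80), Igkc at 11.25 in rat 5 (10.02) and Dgat2 at 16.16 in rat 5 (14.72). In LE, they were Strn3 at 4.84 in rat 8 (4.20), Id2 at 12.69 in rat 7 (11.69) and Junb at 5.63 in rat 7 (6.80). In OC, they were Fv1 at 6.81 in rat 13 (7.04), Ppp1r3c at 13.38 in rat 13 (14.22), Dhcr7 at 13.66 in rat 13 (12.67) and Eml5 at 7.95 in rat 17 (7.58). In OE, Echs1 stood at 13.32 in rat 23 (14.04). Rat 13 of OC appeared in 3 of the 13.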

How the results depend on the processing

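The limma fits under 13 alternatives and without each of the 24 arrays gave 0 transcripts at an adjusted p under 0.05 for the interaction. The lowest adjusted p was 0.699 without moderation and 0.628 among transcripts above the median signal, and it was 0.374 without LE rat 7, 0.472 without OE rat 23 and 0.267 without OE rat 19. Counts at an unadjusted p under 0.05 moved by more than 1.5 times only above the median signal, where fewer transcripts were tested, to 224 higher and 186 lower in obese rats and 14 with opposite responses. Without 1 array they ran from 439 to 548, from 387 to 542 and from 18 to 32. Of the 85 genes, 82 kept their direction throughout. With the clock score, of which they are part, as a covariate, Dbp was −0.23 and Nr1d1 −0.27. Without 1 array Socs2 ran from −0.17 to 0.57. The red blood cell score took the median of fatty acid synthesis genes from −0.40 to −0.16 and that of cholesterol synthesis enzymes from −0.31 to −0.12, and the clock score took that of clock repressors and outputs from 0.25 to −0.09. The cause was not tested. Fixed pairs of array numbers as a random block had a consensus correlation of 0.0356. No paired analysis was possible because the groups share no replicate numbers in the labels. The number of arrays and the low signal of 56.5% of the transcripts at an unadjusted p under 0.05 limit what can be detected.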
